A study of Mus musculus with 15 samples.

Results

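The superoxide dismutases, catalase and the peroxiredoxins are the enzymes that dispose of superoxide and hydrogen peroxide. The group comprised 10 genes, chosen by symbol: Sod1, Sod2 and Sod3, Cat, and Prdx1 to Prdx6. All 10 were present among the 20910 genes of the count table of cultured mouse RPE cells (mRPE) and among the 25038 genes of the count table of mouse RPE/choroid, and all 10 passed the filter on low counts in both. The retinal pigment epithelium (RPE) is the pigmented cell layer behind the photoreceptors, and the study asked what loss of Prom1 (prominin-1, a pentaspan membrane glycoprotein) does to it.

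RNA-seq of mRPE was performed on 4 WT libraries, 3 libraries of the Prom1-KO clone KO22 and 2 libraries of the Prom1-KO clone KO26. mRPE cells were derived from pooled C57BL/6J RPE and immortalized with the HPV E6 and E7 genes. To disrupt Prom1, cells given lentiviral Cas9 were selected with puromycin and then transfected with a guide RNA. Each clone is a single line. The study set both KO26 libraries aside as outliers of a principal component analysis, so that every KO26 value here rests on libraries it did not use. Whether the WT libraries came from cells that also carry Cas9 was not given for the samples. The RPE/choroid series held 3 libraries of WT mice and 3 of mice labelled Prom1-KO, in which a floxed Prom1 allele was combined with an RPE65-driven Cre induced by tamoxifen. The Cre is meant to act in the RPE, so that by design choroid and other cells in the sample would keep Prom1. Recombination was not tested here. The age of these mice was not given. The number that opens each library name (8995 or 9262 for mRPE) is called the batch here. Batch 8995 held 1 library each of WT, KO22 and KO26.

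Total counts ranged from 8076188 to 27537863 per mRPE library and from 48154444 to 61766179 per RPE/choroid library. Mitochondrial genes and Rn18s-rs5 took 15.43% to 26.18% of the mRPE counts but 66.47% to 86.03% of the RPE/choroid counts, with the highest share in 12965-SB-06, which is labelled Prom1-KO. In mRPE only 4 of 15 RPE markers (Best1, Rdh5, Pmel and Mitf) were measured well enough to be tested. Their summed level was 11.8 to 17.4 CPM (read counts relative to the TMM-scaled total of the library) in WT, 17.3 to 40.0 in KO22 and 8.17 to 12.6 in KO26. The markers were split in KO22 against WT. Mitf rose (log2 fold change 1.41, adjusted p of 0.0055 in edgeR) and Rdh5 fell (-1.14, adjusted p of 0.00393). Best1, at 3.34 to 17.4 CPM in KO22, and Pmel (-0.40) did not pass. Rpe65, which defines mature RPE, was not among the genes tested. Fibroblast markers summed to 12810 to 17500 CPM in WT mRPE, 5565 to 8668 in KO22 and 19870 to 21800 in KO26. In RPE/choroid the level of Prom1 itself was 48.7, 49.6 and 53.3 CPM in the WT libraries and 49.9, 48.1 and 35.5 in the libraries labelled Prom1-KO (log2 fold change of -0.18 with an adjusted p of 0.824 in edgeR). Those libraries are therefore named by their label throughout. Prom1 in mRPE is not analysed here.

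Superoxide, the first product of single-electron reduction of oxygen, is converted by superoxide dismutases to hydrogen peroxide. Catalase and the peroxiredoxins then reduce the peroxide, catalase mainly in peroxisomes and peroxiredoxins in the cytosol, mitochondria, endoplasmic reticulum and peroxisomes with electrons from thioredoxin or glutathione. The RPE is exposed to light, high oxygen tension and the lipid-rich outer segments it digests, and these enzymes are long studied in it as protection from oxidative damage.

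In KO22 the group was mostly higher than in WT. A gene is called here at an edgeR adjusted p under 0.05, and as passing both limits when its absolute log2 fold change also exceeded 1.2, the limit in the study's methods. 7 of the 10 members rose in KO22 (Sod1, Sod2, Sod3, Prdx1, Prdx2, Prdx4 and Prdx6), against 26.9% of all 20455 genes tested, and 1 fell (Prdx5), against 26.1% of all genes. Sod3, Prdx6 and Prdx1 passed both limits, which 11.4% of all genes did upward and 13.8% downward. That count of 3 became 5 without WT library 8995-SB-1 and 6 without KO22 library 8995-SB-2, fits for which the share of all genes is not given. For 6 members every KO22 library lay above every WT library, as it did for 24.8% of all genes, and for none did every KO22 library lie below (25.3% of all genes). The median log2 fold change of the members was 1.00, and that of all genes -0.03. Cat and Prdx3 did not pass the test.

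**Figure D1:**
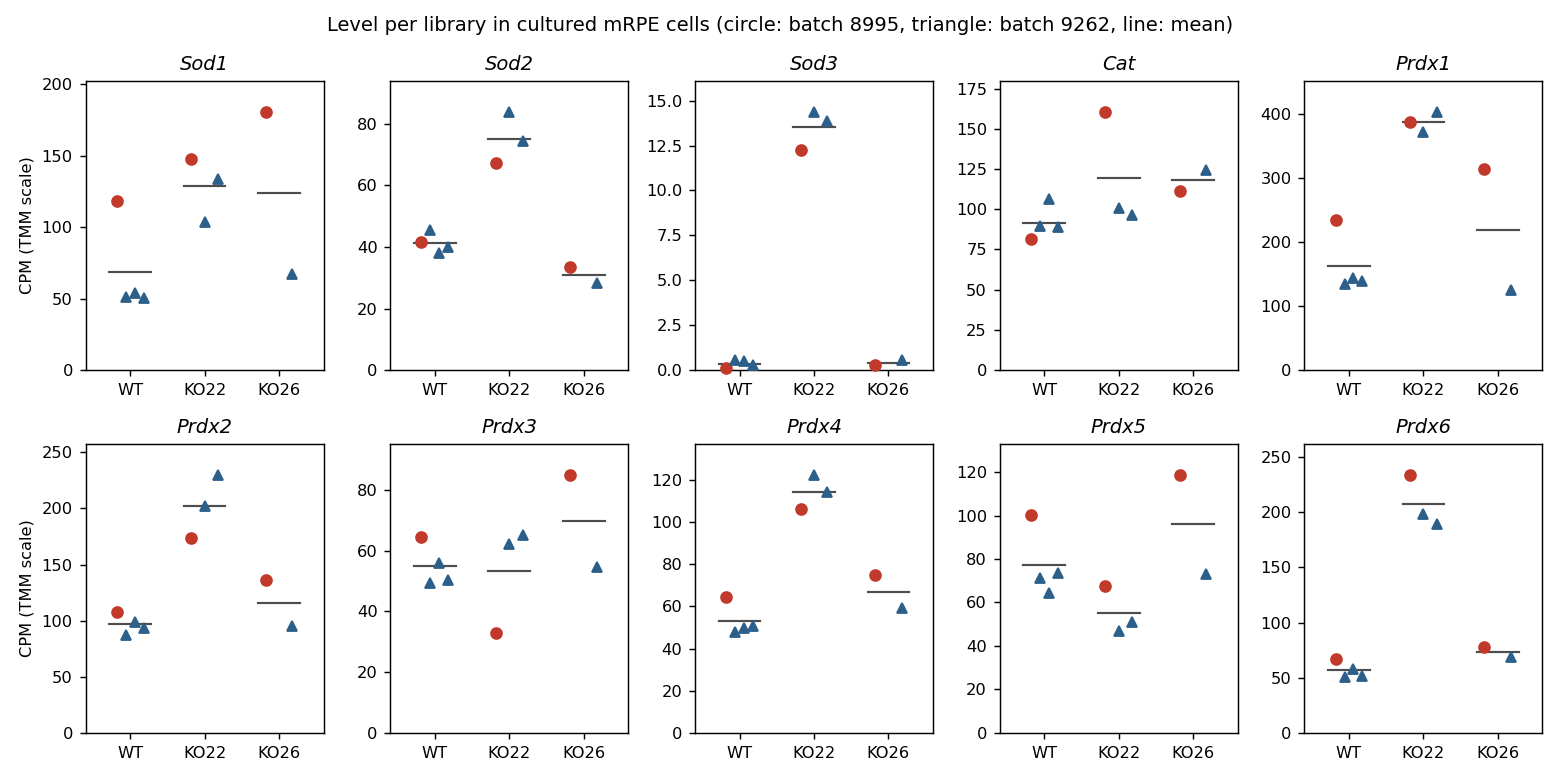
Level of each member in each mRPE library, in CPM on the TMM scale (linear axes from 0), for WT (4 libraries), KO22 (3) and KO26 (2); circles are batch 8995, triangles batch 9262 and the short line is the group mean. Sod3 and Prdx6 stand clear of WT in all KO22 libraries, whereas the KO26 points lie near WT.

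Among the superoxide dismutases, Sod3, the secreted copper/zinc enzyme of the extracellular matrix, differed most. Its gene lies on chr5:52521070-52528883 (mm39, plus strand), on the chromosome that the study's methods give for Prom1. Whether that location has a part in its values was not tested. The WT libraries held 3, 8, 5 and 4 reads of it, or 0.119, 0.548, 0.491 and 0.287 CPM, and the KO22 libraries held 142, 298 and 179 reads, or 12.3, 14.4 and 13.9 CPM. The groups were far apart, at 13.5 ± 1.09 CPM in KO22 (SD, n = 3) and 0.361 ± 0.197 in WT (SD, n = 4). The edgeR fit gave a log2 fold change of 5.37 ± 0.31 (SE, adjusted p = 1.96e-06), or 41.3-fold. The size of this ratio rests on the 3 to 8 reads per WT library. KO26 lay near WT, with 6 and 5 reads (0.278 and 0.578 CPM).

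Sod2, the manganese enzyme of the mitochondrial matrix (chr17:13224095-13259591, plus strand), measured 41.6, 45.5, 38.0 and 40.0 CPM in WT and 67.2, 83.7 and 74.4 CPM in KO22. All KO22 libraries were above all WT libraries, with a log2 fold change of 0.87 ± 0.11 (SE, edgeR adjusted p = 0.000213). In KO26 it was 33.3 and 28.2 CPM, below every WT library. Sod1, the cytosolic copper/zinc enzyme (chr16:90017408-90027657, plus strand), rose by a log2 fold change of 0.94 ± 0.17 (SE, edgeR adjusted p = 0.00144), but its libraries overlapped. WT batch 9262 lay at 51.4, 54.1 and 50.2 CPM and WT library 8995-SB-1 at 119 CPM, whereas KO22 lay at 104 and 134 CPM in batch 9262 and 148 CPM in batch 8995.

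Cat, the peroxisomal catalase (chr2:103284194-103316185, minus strand), was at 81.8, 89.4, 106 and 89.2 CPM in WT. KO22 had 160 CPM in batch 8995 but 101 and 96.7 CPM in batch 9262, inside the WT range. The log2 fold change was 0.33 ± 0.18 (SE, edgeR adjusted p = 0.147).

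The peroxiredoxins were divided in direction. Prdx6, which has a single active cysteine, uses glutathione and also has phospholipase activity (chr1:161051417-161079098, minus strand), measured 67.3, 51.1, 57.6 and 51.5 CPM in WT and 234, 198 and 190 CPM in KO22. It was higher in 3 of 3 KO22 libraries, by 3.59-fold (log2 fold change 1.84 ± 0.10, SE, edgeR adjusted p = 1.37e-06). Prdx1, the abundant cytosolic member (chr4:116532123-116558398, plus strand), measured 234, 134, 144 and 139 CPM in WT and 387, 371 and 402 CPM in KO22. Its log2 fold change was 1.26 ± 0.15 (SE, edgeR adjusted p = 0.000105), just above the limit of 1.2, and the groups did not overlap.

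Prdx2, the second cytosolic member, known from red blood cells (chr8:85693354-85702350, plus strand), measured 108, 87.1, 98.8 and 93.3 CPM in WT and 174, 202 and 230 CPM in KO22 (log2 fold change 1.06 ± 0.13, SE, edgeR adjusted p = 0.000123). Prdx4, the member of the endoplasmic reticulum and secretory pathway (chrX:154106813-154123750, minus strand), measured 64.3, 48.1, 49.8 and 50.5 CPM in WT and 106, 122 and 114 CPM in KO22 (log2 fold change 1.10 ± 0.12, SE, edgeR adjusted p = 7.3e-05). Both were higher in every KO22 library than in any WT library, and both fell short of the fold limit.

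The 2 peroxiredoxins of mitochondria did not rise. Prdx5, which is found in mitochondria, peroxisomes and cytosol (chr19:6884065-6887792, minus strand), measured 100, 71.2, 64.4 and 73.6 CPM in WT and 67.5, 46.9 and 50.9 CPM in KO22. It fell by 0.53 on the log2 scale (SE 0.10, edgeR adjusted p = 0.00205), although the KO22 library of batch 8995 lay within the WT range. Prdx3, of the mitochondrial matrix (chr19:60852489-60863017, minus strand), measured 64.4, 49.3, 56.0 and 50.5 CPM in WT and 32.9, 62.3 and 65.3 CPM in KO22, which left a log2 fold change of -0.06 ± 0.21 (SE) that did not pass. The lowest and the highest of all 7 Prdx3 values were both KO22 libraries. Without WT library 8995-SB-1 Prdx3 passed the test upward (0.29, edgeR adjusted p = 0.00912), as it did without KO22 library 8995-SB-2 (0.31, adjusted p = 0.00543), and Prdx5 no longer passed without the batch term (adjusted p = 0.0557).

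The median over the whole chromosome was shifted most in KO22 for those that carry Prdx2, Prdx3 and Prdx5. The median log2 fold change of the 646 tested genes of chromosome 19, which carries Prdx3 and Prdx5, was -0.42, so that Prdx5 lay 0.11 below it (a difference of -0.11) and Prdx3 0.36 above. Chromosome 8 (1089 genes) had a median of 0.60, and Prdx2 lay 0.46 above it. For the other 7 members the chromosome median lay between -0.19 and 0.26. Whether these shifts have a part in the members' values was not tested. Of genes that overlap a member on the opposite strand, Junb and Rnaseh2a (beside Prdx2) had log2 fold changes of 1.16 and 1.04 in KO22. Acot9 (Prdx4) had 1.00, Scaf4 (Sod1) 0.55 and Trmt112 (Prdx5) 0.03. Such overlaps also exist for Prdx6 (Gm70781 and SLC9C2), Prdx1 (AV051173), Sod2 (Gm36226 and Gm64481), Cat (Gm75342) and Prdx2 (Gm49661). The values of those genes are not given here. Sod3 and Prdx3 have no such overlap. The kit marks strand, but the strand setting of the counting was not given in the sources used here, so that reads of these overlaps cannot be told apart. Sod1, Sod2, Prdx1 and Prdx2 also share near-identical stretches with genes elsewhere in the genome (at least 95% identity over 150 bases or more). These covered 14.8% of the Sod2 transcript, shared with 28 genes, and 34.9% of the Prdx1 transcript. With the overlapping genes included, they covered 83.8% of the Sod1 transcript and 67.3% of the Prdx2 transcript. How reads were divided there was not tested. Gm8566, a copy of Sod1, was at most 0.974 CPM and Gm21399, a copy of Prdx1, at most 1.01 CPM in any mRPE library.

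**Figure D2:**
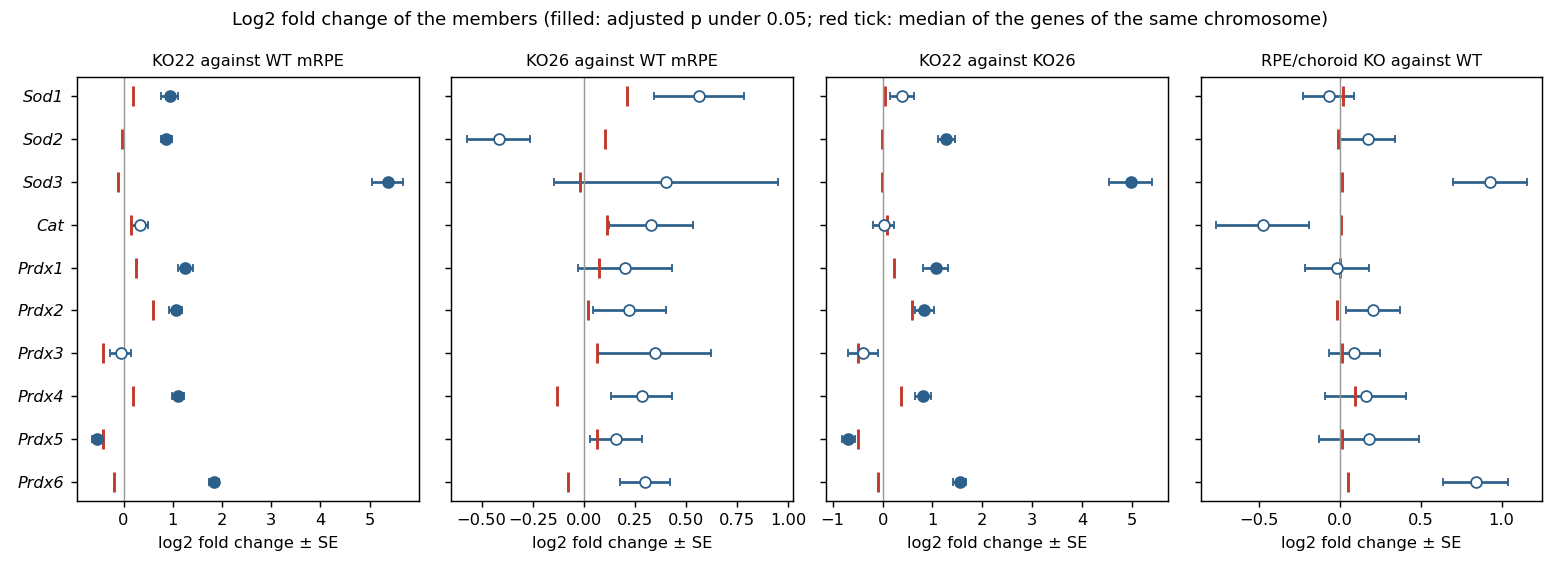
Log2 fold change ± SE (edgeR) of each member in the 4 comparisons, each with its own linear axis; filled points have an adjusted p under 0.05 and red ticks mark the median of all tested genes on the member's chromosome. Filled points appear in the comparisons of KO22 with WT (8 of 10) and with KO26 (7 of 10), and in neither of the others.

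The 2 batches gave unlike sizes for several members. The log2 ratio of KO22 to WT (mean CPM plus a pseudocount of 0.5 CPM, which shrinks it for the low Sod3) was close in batches 8995 and 9262 for Prdx6 (1.79 and 1.85), Prdx5 (-0.56 and -0.51) and Sod2 (0.68 and 0.93). It was smaller in batch 8995 for Sod1 (0.32 and 1.19), Prdx1 (0.72 and 1.47), Prdx2 (0.69 and 1.21) and Prdx4 (0.72 and 1.25). Prdx3 had opposite signs (-0.96 and 0.29), and Cat was higher in batch 8995 alone (0.97 and 0.05). For Sod3 it was 4.37 and 3.96. A fit with an interaction of clone and batch found a difference between the batches for those 6 members, Sod1, Cat, Prdx1, Prdx2, Prdx3 and Prdx4 (edgeR adjusted p 1.83e-05 to 0.0336), against 26.6% of all genes. For Sod2, Sod3, Prdx5 and Prdx6 the adjusted p was 0.127 to 0.872. Batch 8995 enters with 1 library on each side. For Sod3 the fitted difference between the batches (9262 minus 8995) was -1.62 on the log2 scale, larger in size than for any other member. It rests on 3 reads in the WT library of batch 8995. In the WT cells themselves Sod1 and Prdx1 were higher in batch 8995 than in batch 9262, by 1.19 and 0.75 on the log2 scale.

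**Figure D3:**
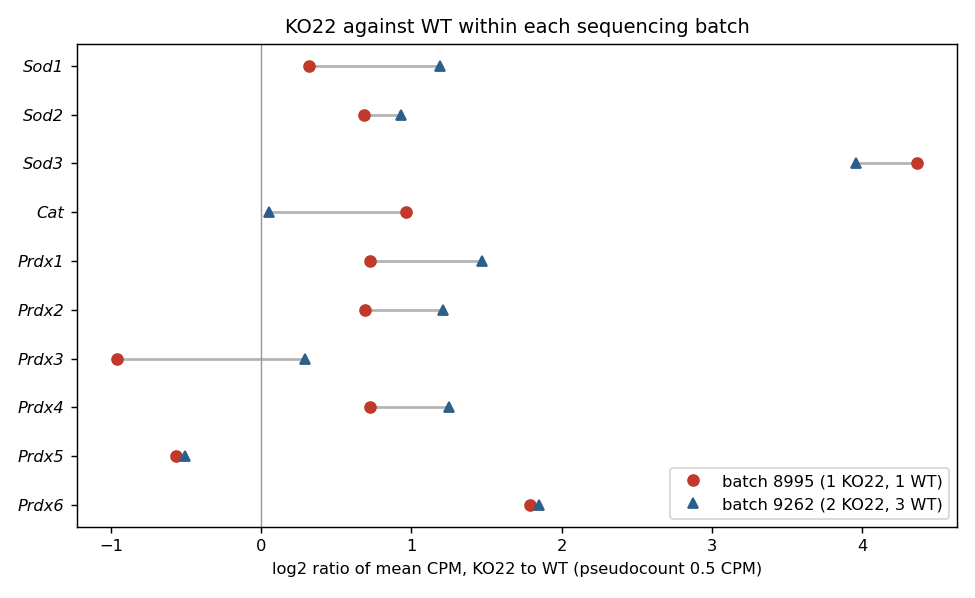
Log2 ratio of mean CPM, KO22 to WT (pseudocount 0.5 CPM), within batch 8995 (circles, 1 library a side) and batch 9262 (triangles, 2 KO22 and 3 WT libraries). Prdx5 and Prdx6 coincide in the batches, and Prdx3 lies on either side of 0.

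The upstream sequences of Sod1 and Prdx1 are shown because they alone, of the 8 members with an entry in the RefSeq promoter table (all but Sod3 and Prdx6), hold the core of the antioxidant response element, the motif that NRF2 binds, searched as TGACNNNGC on both strands. Each is the 250 bases before the start of the gene in GRCm38.p6, 5′ to 3′ on the plus strand, chr16:90220512-90220761 for Sod1 and chr4:116685349-116685598 for Prdx1, and capitals mark motif matches.
Sod1: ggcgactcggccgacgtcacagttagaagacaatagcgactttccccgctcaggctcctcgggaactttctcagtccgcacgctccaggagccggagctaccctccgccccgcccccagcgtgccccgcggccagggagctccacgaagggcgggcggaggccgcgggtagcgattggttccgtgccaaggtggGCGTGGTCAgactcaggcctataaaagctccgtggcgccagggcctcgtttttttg
Prdx1: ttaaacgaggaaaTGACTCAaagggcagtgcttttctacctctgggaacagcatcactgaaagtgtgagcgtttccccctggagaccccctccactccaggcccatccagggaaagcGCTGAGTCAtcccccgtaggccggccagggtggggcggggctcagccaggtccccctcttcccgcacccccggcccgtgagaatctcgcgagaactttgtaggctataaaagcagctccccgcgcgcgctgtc
The core stands in both on the minus strand and reads, on the plus strand printed here, GCGTGGTCA in Sod1 and GCTGAGTCA in Prdx1. In Prdx1 it overlaps a second motif, TGANTCA, to which AP-1 factors bind and which also occurs farther upstream as TGACTCA. Over 300 bases (250 before and 50 after the start), the core was found in 12.4% of the 32851 promoters of the table and TGANTCA in 7.81%. Both genes were among the 7 members that rose in KO22, and Sod2, Prdx2 and Prdx4, which rose as well, held neither motif in this window. A match describes letters only.

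In KO26 no member passed the test against WT, which 2.36% of all 20737 genes did upward and 1.13% downward. edgeR called 0 and DESeq2 0 of the 10, and 3 had an unadjusted p under 0.05 (Sod1, Sod2 and Prdx6), as 4163 of the 20737 genes did. Sod1 was at 181 and 67.3 CPM in KO26, each above the WT libraries of its own batch, with a log2 fold change of 0.56 ± 0.22 (SE, edgeR adjusted p = 0.19). Sod2 had a log2 fold change of -0.42 ± 0.16 (SE, adjusted p = 0.171). Prdx6, at 78.0 and 68.5 CPM, had one of 0.30 ± 0.12 (SE, adjusted p = 0.205). Cat was at 111 and 124 CPM (log2 fold change 0.33, adjusted p = 0.398). Cat and Prdx6 lay above every WT library in both KO26 libraries, as 11.9% of all genes did, and Sod2 lay below them, as 12.8% did. Prdx1 had 313 CPM in batch 8995 and 125 CPM in batch 9262, and Prdx3 85.1 and 54.7 CPM. The remaining log2 fold changes ran from 0.16 (Prdx5) to 0.40 (Sod3), and the median over the members was 0.29 against 0.03 for all genes. In a fit of the WT and KO26 libraries alone 3 members passed, Sod1 (0.45), Sod2 (-0.47) and Cat (0.39). The same 3 passed when KO22 library 8995-SB-2 was left out of the joint fit. The shares of all genes that passed in these fits are not given here. The 2.36% and 1.13% above belong to the main fit.

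The clones themselves differed for 7 members. KO22 exceeded KO26 for Sod2, Sod3, Prdx1, Prdx2, Prdx4 and Prdx6 (16.3% of all genes were higher), and Prdx5 was lower (18.1% of all genes). Of these Sod2 (log2 fold change 1.28 ± 0.16, SE, edgeR adjusted p = 0.000251), Sod3 (4.97 ± 0.43, adjusted p = 1.99e-05) and Prdx6 (1.54 ± 0.13, adjusted p = 2.09e-05) passed both limits, as 7.56% of all genes did upward and 10.7% downward. Prdx1 (1.06), Prdx2 (0.84), Prdx4 (0.82) and Prdx5 (-0.69) had adjusted p-values of 0.00262 to 0.00822. The same 7 did not overlap between the clones (23.4% of all genes higher and 24.6% lower). For Sod1, Cat and Prdx3 the log2 differences were 0.38, 0.02 and -0.39 with adjusted p-values of 0.247 to 0.953. Without KO22 library 8995-SB-2 Sod1 passed (0.75, edgeR adjusted p = 0.00073), and without KO26 library 9262-SB-6 Prdx1 (0.59) and Prdx2 (0.55) no longer did. In a fit of the 2 clones alone 4 of the 7 passed, and the share of all genes in that fit is not given. Without the batch term Prdx1 did not pass (0.82, edgeR adjusted p = 0.12). Comparisons of each clone with WT share the WT libraries, so their values are given side by side only.

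Of the thioredoxin system that feeds the peroxiredoxins, 4 of 10 genes rose and 3 fell in KO22 (median log2 fold change 0.22), beside 26.9% and 26.1% of all genes. Txn1, the cytosolic thioredoxin, was at 465 to 671 CPM in KO22 and 143 to 304 CPM in WT (log2 fold change 1.65, edgeR adjusted p = 0.000386). Txnrd1, its reductase, rose by 1.43 (adjusted p = 7.81e-06) and Srxn1, the sulfiredoxin that repairs over-oxidized peroxiredoxins, by 1.14 (adjusted p = 0.00013) on the log2 scale. The mitochondrial Txn2 rose as well (0.87), while its reductase Txnrd2 had a log2 fold change of 0.11 (adjusted p = 0.667). Txnip, an inhibitor of thioredoxin, fell to 25.6 to 31.3 CPM from 65.4 to 107 CPM (log2 fold change -1.57), and the sestrins Sesn1 (-2.14) and Sesn3 (-0.45) fell too. In KO26, Srxn1 (0.89, adjusted p = 0.0207) and Sesn2 (0.99, adjusted p = 0.0449) rose, and the other 8 genes did not pass. Between the clones Txn1 (1.15) and Txnrd1 (1.02) were higher in KO22 and Sesn1, Sesn2 and Txnip lower, beside 16.3% and 18.1% of all genes.

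Of 6 genes that hand copper, zinc or manganese to the superoxide dismutases or carry these metals, 4 rose and 2 fell in KO22 (median log2 fold change 0.66), beside the same 26.9% and 26.1% of all genes. Slc39a14, a transporter of zinc and manganese, rose from 61.4 to 107 CPM in WT to 263 to 526 CPM in KO22 (log2 fold change 2.05, edgeR adjusted p = 0.000168). The copper importer Slc31a1 (0.90), the copper chaperone Atox1 (0.77) and the copper pump Atp7a (0.56) rose. Ccs, the chaperone that loads copper into Sod1, went the other way, at 6.98 to 8.04 CPM in KO22 and 11.9 to 14.3 CPM in WT (-0.81, adjusted p = 0.00121). Slc39a8 fell by 0.49 on the log2 scale. None of the 6 passed in KO26.

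The glutathione peroxidases are another family of peroxide-reducing enzymes. Of 5 that could be tested in mRPE, Gpx1 rose in KO22 (0.52) and Gpx3 (-2.10), Gpx7 (-0.88) and Gpx8 (-0.32) fell, while Gpx4 did not pass (-0.27, edgeR adjusted p = 0.165). Among all genes 26.9% rose and 26.1% fell. Gpx3, the secreted member, was low throughout, at 0.519 to 0.776 CPM in KO22 and 1.11 to 4.23 CPM in WT. None of them passed in KO26. Of 14 tested genes for enzymes and subunits that make superoxide or peroxide, 4 rose and 3 fell in KO22 (median -0.15), shares near the 26.9% and 26.1% of all genes. Among NADPH oxidases, Nox1 rose (log2 fold change 1.36, 8.13 to 14.6 against 3.80 to 5.42 CPM) and Nox4 fell (-1.59, 11.5 to 32.1 against 39.9 to 110 CPM). Cybb fell and its partner Cyba rose, with Cybb at 0.0865 to 0.155 CPM in KO22 and 0.397 to 1.005 CPM in WT. Ero1a, which makes peroxide during disulfide formation in the endoplasmic reticulum, rose by 2.12 with a wide spread, 333 to 2393 CPM. In KO26, Nox4 and Maoa fell and no gene of this list rose.

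Catalase reaches its organelle through peroxisomal import. Of 13 listed genes of peroxisome import and biogenesis, not all of which carry catalase, 8 fell in KO22 and 1, Pex14, rose (0.69). Among all genes 26.1% fell and 26.9% rose. The median was -0.41. Pex5, the receptor that carries catalase into peroxisomes, was at 11.8 to 12.6 CPM in KO22 and 17.9 to 23.3 CPM in WT (log2 fold change -0.77, edgeR adjusted p = 0.000875). Pex19 (-0.87) and Pex26 (-0.86) had the largest falls of the list. No gene of the list passed in KO26, and 6 were lower in KO22 than in KO26, as 18.1% of all genes were.

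In RPE/choroid no member passed the edgeR test, which no gene passed upward (0%) and 0.193% of 24926 passed downward. 2 members, Sod3 and Prdx6, had an unadjusted p under 0.05, as 2068 genes did, and DESeq2 called these 2 higher in the libraries labelled Prom1-KO. DESeq2 called 0.578% of all genes higher and 1.22% lower. Both members lay higher in all labelled Prom1-KO libraries than in all WT libraries, as 6.71% of all genes did, and no member lay lower in all of them (7.89% of all genes).

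Sod3 measured 33.4, 18.5 and 24.3 CPM in WT and 56.2, 43.4 and 45.2 CPM in the libraries labelled Prom1-KO, a log2 fold change of 0.93 ± 0.23 (SE, edgeR adjusted p = 0.266, DESeq2 adjusted p = 0.0206). Prdx6 measured 55.8, 34.4 and 40.6 CPM in WT and 69.3, 82.4 and 82.4 CPM in the others, a log2 fold change of 0.84 ± 0.20 (SE, edgeR adjusted p = 0.232, DESeq2 adjusted p = 0.0146). With each library left out in turn the log2 fold changes stayed between 0.74 and 1.17 for Sod3 and between 0.69 and 1.06 for Prdx6. In the same libraries 5 of 15 RPE markers fell (Rpe65, Lrat, Rdh5, Rgr and Slc16a8), against 0.193% of all genes. The list summed to 2715 to 3704 CPM in WT and 1324 to 1514 CPM in those labelled Prom1-KO. Rpe65 was at 204 to 287 CPM in WT and 1.13 to 5.98 CPM in the others. The pigment genes Tyr, Tyrp1, Dct and Pmel did not pass (log2 fold changes of -0.16 to 0.37). Ttr (-3.02), Rlbp1 (-2.07) and Mitf (-0.82) were lower but did not pass either (edgeR adjusted p of 0.0709 to 0.0929). Of the whole list only Tyr, Dct and Mlana had positive log2 fold changes. In such bulk samples fewer cells of a type and less RNA per cell cannot be told apart, and the part of these markers in the members' values was not tested. Photoreceptor markers summed to 48.7 to 1324 CPM in WT and 28 to 651 CPM in the others, endothelial markers to 103 to 209 and 68.8 to 91.3 CPM, and fibroblast markers to 932 to 1932 and 821 to 1884 CPM.

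Cat was at 60.4, 61.0 and 80.5 CPM in WT. The libraries labelled Prom1-KO gave 36.1 and 37.3 CPM, below WT, and 71.9 CPM in 12965-SB-06, within the WT range. Its log2 fold change was -0.47 ± 0.29 (SE, edgeR adjusted p = 0.732) and, without 12965-SB-06, -0.89 (adjusted p = 0.177). For the other 7 members the groups overlapped and the log2 fold changes ran from -0.07 (Sod1) to 0.21 (Prdx2), with edgeR adjusted p-values of 0.807 to 0.993. Over all 10 members the median was 0.17 and over all genes 0.01. No gene of the thioredoxin, glutathione peroxidase, metal, oxidase or peroxisome lists passed. Gpx3 had a log2 fold change of 1.33 (KO 167 to 239 CPM against WT 64.8 to 109 CPM, adjusted p = 0.126).

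**Figure D4:**
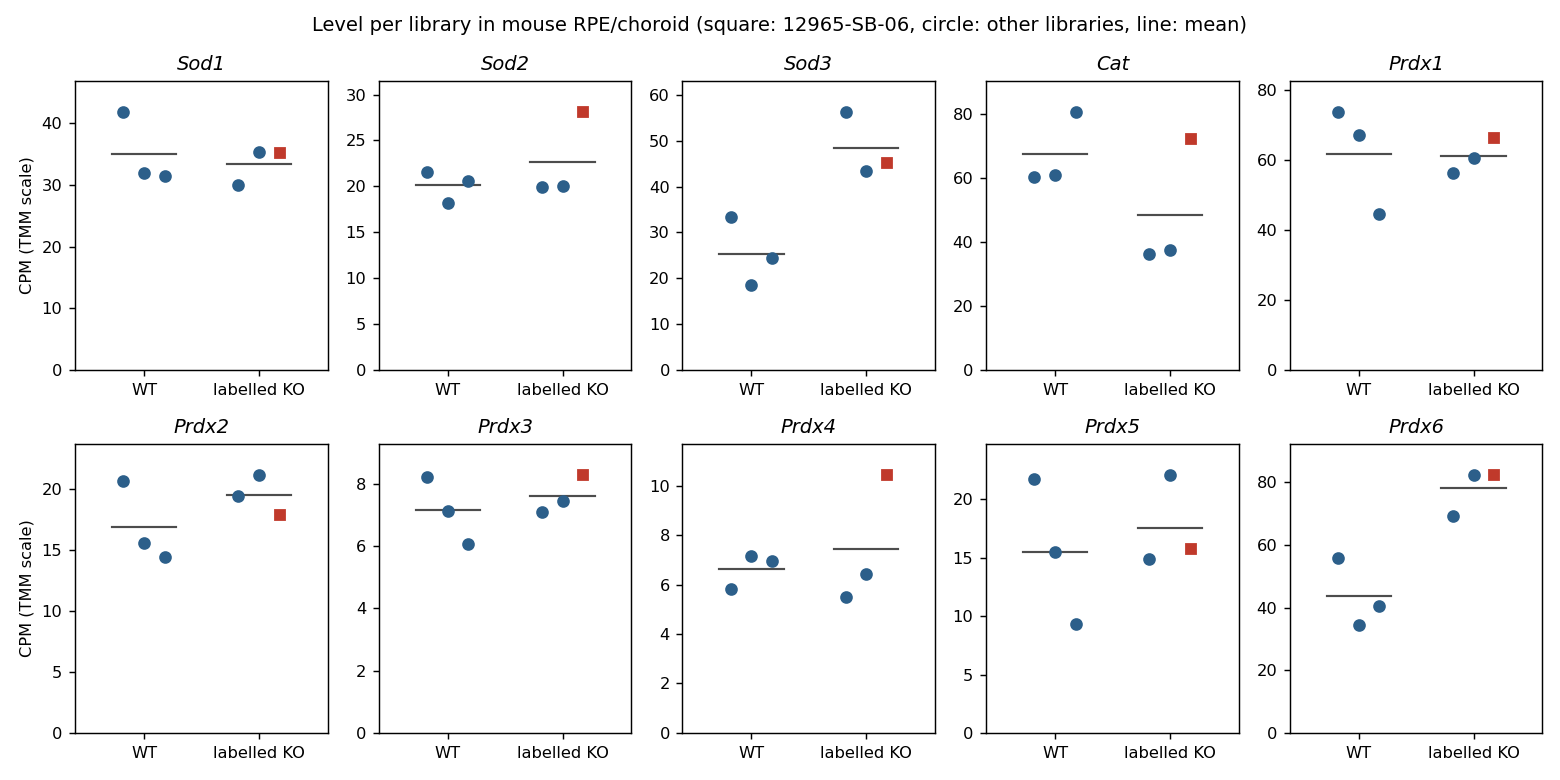
Level of each member in each RPE/choroid library, in CPM on the TMM scale (linear axes from 0), for 3 WT libraries and 3 labelled Prom1-KO; the square is 12965-SB-06 and the short line the group mean. The groups are apart for Sod3 and Prdx6, and the square alone brings Cat of the labelled Prom1-KO libraries into the WT range.

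Levels of different genes were compared per kb of exon, as CPM computed over the counts outside mitochondrial genes and Rn18s-rs5. In WT mRPE Prdx1 had the highest mean of the members, 50.9 ± 12.5 per kb (SD, n = 4), and Sod3 the lowest, 0.115 ± 0.064. Prdx3 (43.9 ± 3.49) and Prdx5 (40.2 ± 6.71) lay within the spread of Prdx1. In WT RPE/choroid Cat was the highest at 73.3 ± 11.7 per kb (SD, n = 3), followed by Prdx1 at 59.6 ± 15.1, which did not differ from it beyond the spread, and Sod2 was the lowest at 6.17 ± 0.49. In that tissue Prdx4 (6.79 ± 0.76) lay within the spread of Sod2. These places, by mean, held with each of 4 definitions of gene length, in part narrowly. With 1 of these definitions, in the tissue, Prdx1 (93.11) and Prdx6 (93.06) nearly coincided, as did Prdx3 (20.8) and Sod2 (20.5). The order in between did not, since the annotation gives up to 37 transcripts per member. In WT mRPE Prdx3 (43.9), Prdx5 (40.2) and Cat (32.8) followed Prdx1, then Prdx2 (27.9), Prdx4 (17.8), Sod1 (10.3), Prdx6 (7.99) and Sod2 (4.16), where Prdx3 and Prdx5 were within each other's spread.

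Per gene and without the length, the same scale gave the WT culture and the WT tissue side by side, from tables deposited separately and therefore with no test. Sod3 was at 0.480 CPM on that scale in mRPE (0.148 to 0.742) and 102 in RPE/choroid (74.7 to 134). Cat (120 and 269) and Prdx6 (74.4 and 174) also had higher values in tissue, whereas Prdx2 (127 and 67.6), Prdx3 (72.0 and 28.6) and Prdx4 (69.5 and 26.6) had higher values in culture. Even in KO22, Sod3 was at 16.2 (14.7 to 17.0), below all tissue libraries. Culture, tissue makeup and library series cannot be told apart here.

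**Figure D5:**
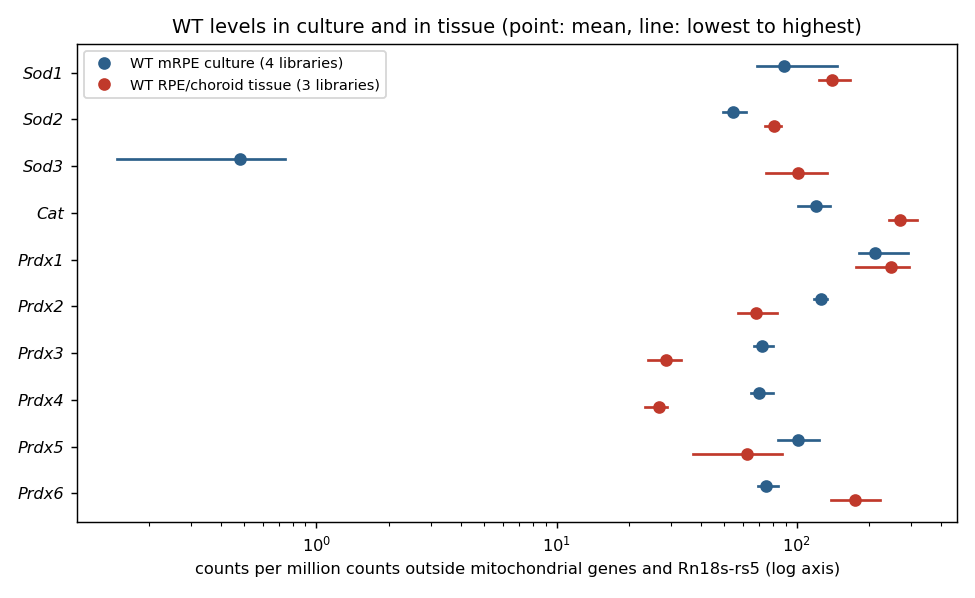
Level of each member in WT mRPE (4 libraries) and WT RPE/choroid (3 libraries), as CPM over the counts outside mitochondrial genes and Rn18s-rs5 on a log axis; points are means and lines run from the lowest to the highest library. Sod3 is the member whose values lie farthest apart, 0.480 and 102.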

How the data were processed

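The members and gene lists were chosen with earlier results of these data known. Reads were trimmed with Trim Galore 0.6.7 and aligned to mm39 with STAR by the authors, per the study's methods and processing notes. The deposited raw counts per gene were used. The deposited normalized signal values are the counts divided by 1 size factor per library and entered no test. Counts were fitted with edgeR 4.0.16 under R 4.3.3 (quasi-likelihood test, TMM, a minimum of 5 counts in 3 or more libraries, adjustment by Benjamini-Hochberg over all genes tested). KO22 was compared with WT over 7 mRPE libraries with the batch as a term, and KO26 over all 9 in 1 fit. RPE/choroid had no covariate. SE is the absolute log2 fold change over the square root of F. DESeq2 1.42.0 was an alternative. The method was tested on simulated data. Named genes are all members, list genes where their list is described, and Prom1 as a check of the labels. Positions are from GENCODE. The labels do not say that libraries came from separate cultures or animals, so p-values measure only the spread between these samples. Alternatives were other normalization, filters, batch handling, gene lengths and each library left out. The interaction with batch, 2 of the gene lengths, TGANTCA, and RPE/choroid without mitochondrial genes were added after seeing the data.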

Additional observations from a re-analysis of the deposited data

Results flagged for a closer look

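In WT mRPE, library 8995-SB-1 lay far from the other 3 for Sod1 (119 CPM), Prdx1 (234 CPM) and Prdx4 (64.3 CPM), past the critical value of Dixon's test for 4 samples. Chance flags about 1 in 20 groups, and this library is the only WT library of batch 8995. KO22 differed from KO26 in log2 fold change, by an edgeR test of the difference itself, for Sod2 (1.28), Sod3 (4.97), Prdx1 (1.06), Prdx2 (0.84), Prdx4 (0.82), Prdx5 (-0.69) and Prdx6 (1.54). The KO22 effect differed between batches (9262 minus 8995, log2) for Sod1 (0.87), Cat (-0.92), Prdx1 (0.75), Prdx2 (0.52), Prdx3 (1.27) and Prdx4 (0.53), with 1 library a side in batch 8995.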

How the results depend on the processing

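Of the alternative log2 fold changes of the members, with the ratios within a batch included, 514 stayed the same, 21 reversed, 9 moved, 9 passed and 7 no longer passed. Where a test was run, the same means the same direction and side of the threshold. The ratios within a batch had no test. For them the same means within 1 SD (of the libraries around their group means) of the main value, and moved means farther off with the same sign. With 1 library left out in turn, members of KO22 past both limits numbered 2 to 6 against 3 (5 without WT library 8995-SB-1, 6 without KO22 library 8995-SB-2) and those past the adjusted p alone 8 to 9 against 8. The count for KO26 against WT was 0 to 3 (3 without 8995-SB-2), and that for KO22 against KO26 5 to 9 against 7, or 2 to 4 against 3 with the fold limit. In RPE/choroid it was 0 to 0. For fits on fewer libraries the share of all genes called is not given. With WT and KO26 libraries alone 3 members were called (Sod1 0.45, Sod2 -0.47 and Cat 0.39). With KO22 and KO26 alone 4 were called, and Cat reversed to -0.017. With DESeq2 2 members were called in RPE/choroid. Prdx3 in KO22 against WT was 0.29 within batch 9262 and -0.25 to 0.31 with 1 library left out, passing the test upward without 8995-SB-1 (0.29, edgeR adjusted p = 0.00912) or 8995-SB-2 (0.31, adjusted p = 0.00543). Signs also changed with 1 library left out, for KO26 against WT in Sod3 (-0.012 to 0.68), Prdx1 (-0.24 to 0.66), Prdx2 (-0.034 to 0.51) and Prdx3 (-0.078 to 0.78), for KO22 against KO26 in Cat (-0.34 to 0.24) and Prdx3 (-0.84 to 0.12), and in RPE/choroid in Sod1 (-0.14 to 0.077), Sod2 (-0.023 to 0.25), Prdx1 (-0.20 to 0.13), Prdx3 (-0.014 to 0.21), Prdx4 (-0.17 to 0.33) and Prdx5 (-0.082 to 0.50). Without the batch term Prdx5 in KO22 had an edgeR adjusted p of 0.0557 and Prdx1 in KO22 against KO26 one of 0.12. Where KO26 or batch 8995 was left with 1 library, that library is assumed to vary like the others. The causes were not tested. Sod3 in mRPE is limited by 3 to 8 reads per WT library.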
